A study of Mus musculus with 2 samples.

Results

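Broad Brg1 domains were stretches of 30 kb or more in which chromatin precipitated with an antibody against Brg1 stayed above input chromatin from 1 window of 10 kb to the next. They were selected on measured values. Tags of both libraries were summed in 247243 autosomal windows of 10 kb, and the ChIP/input ratio of each window was divided by 2.36, the ratio of the ChIP to the input total over the autosomes. A member was a run of 3 or more adjacent windows that each held at least 10 input tags and had a scaled ratio of at least 1.5. This rule gave 1356 domains out of 17459 runs of any length, which also included 13279 single windows and 2824 runs of 2 windows. The members held 4980 windows, or 49.8 Mb, which is 2.01% of the autosomal windows. They held 5.37% of the autosomal ChIP tags and 2.59% of the input tags.

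Brg1 is an ATPase subunit of the Swi/Snf (BAF) complex, which uses the energy of ATP to slide and evict nucleosomes. It carries a bromodomain that binds acetylated histones, and in mammalian cells it is found at promoters and at enhancers. Whether a broad stretch is made of separate peaks, of an even plateau or of both can be read from the tags inside it.

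The 2 libraries came from primary embryonic fibroblasts (MEFs) of wild-type mouse embryos at E13.5, of mixed C57BL/6 and 129 background. Chromatin was released from nuclei by micrococcal nuclease, an enzyme that cuts between nucleosomes, with brief sonication. One library was precipitated with a rabbit polyclonal antibody against Brg1, and the other, the input, had no antibody. The labels name no replicate culture. Each group had 1 library, so no value below has a replicate check, and all intervals are 95% intervals that cover counting error only. The ChIP library held 13215004 autosomal tags, on average 53.4 per 10 kb window, and the input held 5608004, on average 22.7. The tests of the labelled cell type that marker genes allow need an annotation on the coordinates of the files, mm9. Such an annotation and an mm9 genome were not used here, so neither genes nor sequences are given. Positions are those of the files, which do not say whether they count from 0 or from 1.

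The ratio in a member is not a finding, since it chose the member, and it is given as a description. Of 226033 windows with at least 10 input tags, 23907 reached a ratio of 1.5, a background of 10.6%. Of these passing windows 20.8% lay in domains. Pooled over all members the scaled ratio was 2.07 (2.06 to 2.08). The domains ranged from 1.54 to 3.32 with a median of 2.01, and 694 of the 1356 had a ratio of at least 2, while 8 had one of at least 3. The median member held 463.5 ChIP tags and 97 input tags, and its lower interval bound was 1.62. Most domains were therefore moderate rises over a long stretch. By strand, 1272 members (93.8%) had a ratio of at least 1.5 with either strand alone.

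Most of the domains were at or near the smallest width the rule allows. In all, 839 spanned 30 kb (61.9%), 304 spanned 40 kb and 114 spanned 50 kb. A further 99 spanned 60 kb or more, and the widest was 120 kb. The mean width was 36.7 kb. The number fell at every step of 10 kb up to 100 kb, with no separate group of very wide domains.

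**Figure D1:**
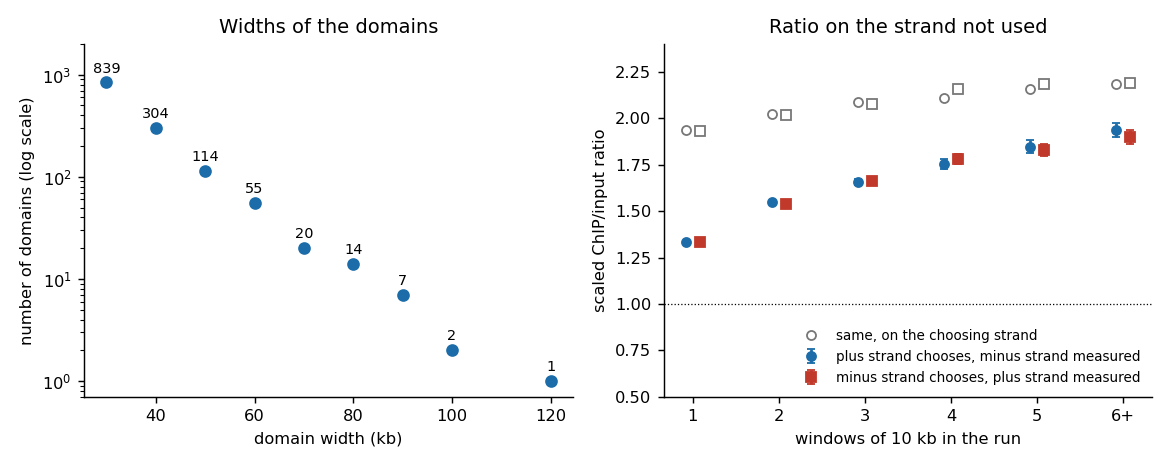
Left, number of domains (log scale) against width in kb, from 839 of 30 kb to 1 of 120 kb. Right, scaled ChIP/input ratio on the strand that did not choose the runs (filled, with 95% intervals) and on the strand that did (open), against the number of 10 kb windows in the run. Circles are runs chosen on the plus strand and squares those chosen on the minus strand; the filled circles rise from 1.33 for single windows to 1.94 for runs of 6 or more.

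A ratio free of this selection was obtained by choosing runs on the tags of 1 strand and measuring them on the tags of the other. With at least 5 plus-strand input tags per window in place of 10 tags of both strands, the plus strand gave 1750 domains. Their ratio was 2.12 on the plus strand that chose them and 1.74 (1.73 to 1.75) on the minus strand. With the strands exchanged, 1736 domains had 2.12 on the choosing strand and 1.74 (1.73 to 1.75) on the other. Of the 1750 domains, 1687 (96.4%) were above 1 on the minus strand and 1157 (66.1%) reached 1.5 there. These runs were not the members themselves, and 660 of the 1750 (37.7%) shared a window with a domain chosen on the minus strand. Pooled over such runs, the enrichment thus stood in tags that had no part in the choice, at a lower level than on the choosing strand. The 2 strands come from the same 2 libraries, so this measures the counting error of the choice and not the spread between cultures.

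The ratio on the unused strand was higher the longer the run. It was 1.33 (1.33 to 1.34) in single windows and 1.55 (1.54 to 1.56) in runs of 2. Runs of 3 were at 1.66 (1.64 to 1.67), runs of 4 at 1.75 (1.73 to 1.78), runs of 5 at 1.85 (1.81 to 1.88) and runs of 6 or more at 1.94 (1.90 to 1.97). No 2 neighbouring intervals in this order overlapped. With the strands exchanged the order was the same, but the interval of runs of 5 (1.83, 1.79 to 1.86) overlapped both that of runs of 4 (1.78, 1.75 to 1.81) and that of runs of 6 or more (1.90, 1.86 to 1.94). Domains together were 1.31 times as high as single windows (1.295 to 1.317) and 1.13 times as high as runs of 2 (1.12 to 1.14), both with intervals above 1. Runs of 6 or more were 1.17 times as high as runs of 3 (1.14 to 1.19). On the choosing strand the same step was smaller, from 1.94 in single windows to 2.19 in runs of 6 or more. The plot of ratio against run length shows both series. Windows that passed through counting error can be a smaller share of longer runs, which by itself would raise their ratio on the unused strand. The rise with length can thus follow in part from the choice, and that part was not tested.

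The choice was repeated with other windows and with part of the tags, and a member counted as found again where any new domain touched it. A wide member offers more places to be touched than a narrow one, and the tags are those that chose the members, so a rise with width is partly fixed beforehand. With the window grid moved by 5 kb, the rule gave 1318 domains, and 744 of the 1356 members (54.9%) touched one of them. By width this share was 42.6% at 30 kb, 71.1% at 40 kb, 72.8% at 50 kb and 88.9% at 60 kb or more. Choice on each strand alone found 606 members (44.7%) with both strands, 33.0% of the 30 kb domains and 88.9% of those of 60 kb or more. Met by the moved grid and by both strands were 434 members, among them 79 of the 99 widest. Of the 30 kb members, 160 of 839 (19.1%) were met by all 3. Many of the 30 kb stretches were thus members on 1 grid or with all tags only, and the counts by width are given as a description.

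The widest domain lay on chromosome 19 at 9040000 to 9159999, where 2263 ChIP tags stood against 420 input tags (ratio 2.29, 2.06 to 2.54). From left to right, its 12 windows held 233, 269, 320, 180, 66, 117, 132, 135, 156, 225, 221 and 209 ChIP tags. The input held 41, 35, 38, 37, 17, 29, 31, 37, 35, 38, 40 and 42 in the same windows. The domain thus had 2 shoulders, with ratios up to 3.57 on the left and 2.51 on the right, joined by 5 windows between 1.55 and 1.89. Its highest 1 kb bin, at 9148000 to 9148999, held 55 ChIP tags against 3 input tags, 2.92 times the domain's mean bin.

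The domains of 100 kb differed from each other in shape, and the one on chromosome 10 again had high ends and a lower middle. On chromosome 10 at 119820000 to 119919999, 1650 ChIP tags stood against 315, a ratio of 2.22 (1.97 to 2.52). Its window ratios were highest at the ends, 3.35 and 3.43 on the left and 3.14 on the right, and fell to 1.598 between them. The domain on chromosome 8 at 37720000 to 37819999 (1288 against 244 tags, ratio 2.24, 1.95 to 2.58) had window ratios from 1.87 to 3.25. It held no 1 kb window that was called on its own by the test described further on, and its highest bin had 36 ChIP tags against a mean of 12.9. The domain on chromosome 10 had a bin of 51 tags near its right end. Relative to their own means the highest bins were alike, 2.80 times on chromosome 8 and 3.09 times on chromosome 10.

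**Figure D2:**
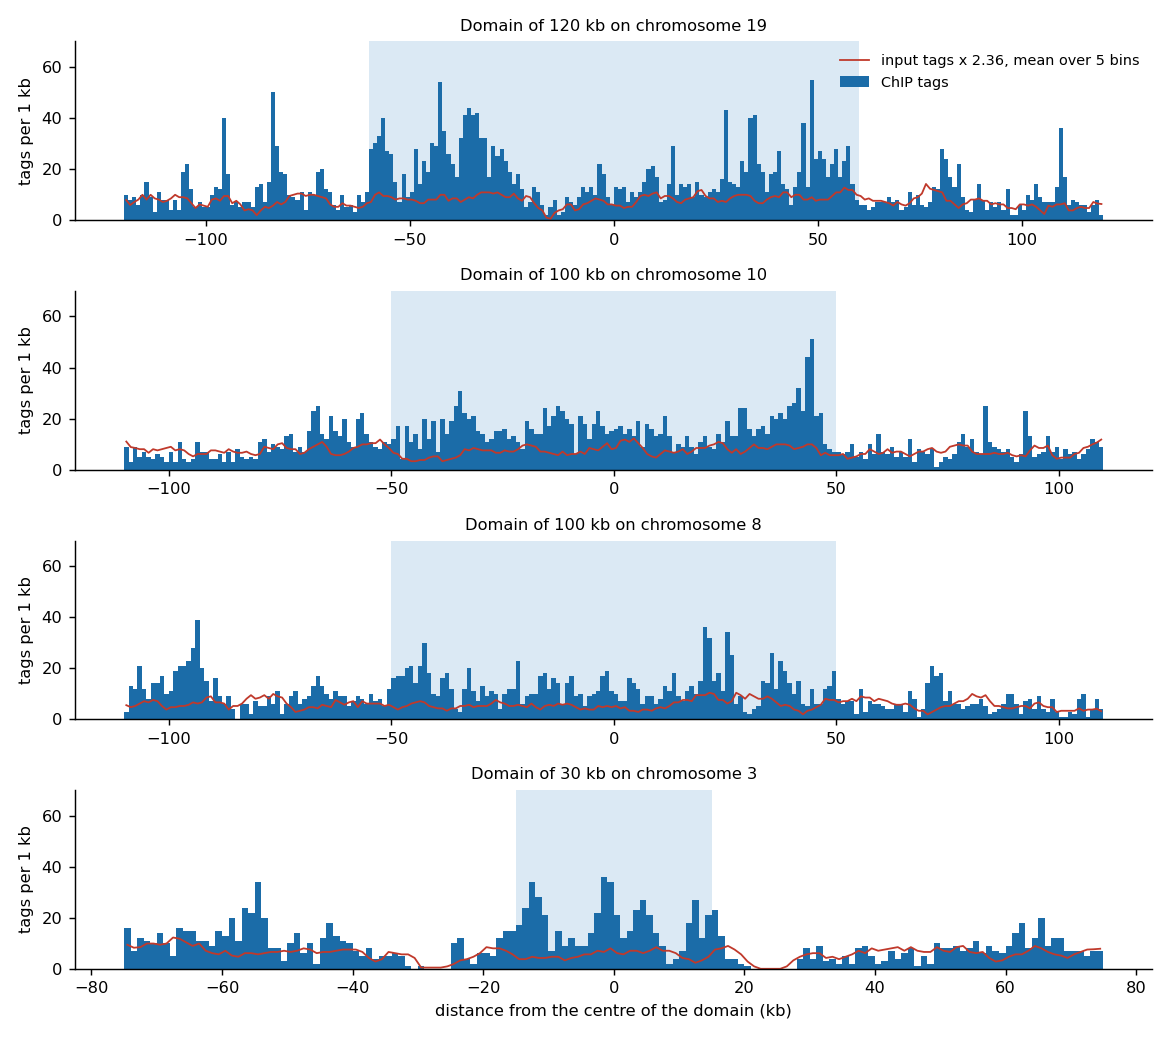
ChIP tags per 1 kb (bars) and scaled input tags (line, mean over 5 bins) against distance from the domain's centre in kb, for the 3 widest domains and the 30 kb domain with the highest lower bound; the domain is shaded. The 120 kb domain on chromosome 19 shows 2 groups of high bins with a lower stretch between them, while the 100 kb domain on chromosome 8 has no bin above 36 ChIP tags inside the shading.

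Next in width were 7 domains of 90 kb. Chromosome 11 held the one with the highest ratio, 2.498 (2.21 to 2.84) from 1725 ChIP and 293 input tags, at 86380000 to 86469999. On chromosome 12 at 16840000 to 16929999 there were 1620 and 287 tags (2.395, 2.11 to 2.73). This domain alternated along its length: its windows went from 1.64 to 3.74 to 1.52 between neighbours, and it held 4 called 1 kb windows. On chromosome 4 at 138740000 to 138829999 the tags were 1589 and 312 (2.16, 1.91 to 2.45), and on chromosome 3 at 61140000 to 61229999 they were 1212 and 243 (2.12, 1.84 to 2.44).

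The domain on chromosome 3 had the sharpest single bin of the 12 widest, 63 ChIP tags against 2 input tags at 61168000 to 61168999, 4.68 times its mean bin. It was also the only one of the 12 that the moved grid did not find. The other 90 kb domains lay on chromosome 1 at 92910000 to 92999999 (1661 and 348 tags, ratio 2.03, 1.80 to 2.28), on chromosome 13 at 110420000 to 110509999 (1109 and 227, 2.07, 1.80 to 2.402) and on chromosome 2 at 60660000 to 60749999 (1334 and 288, 1.97, 1.73 to 2.24). On chromosome 2 the lowest window was at 1.503, near the limit of the rule. The list of 12 closed with 2 domains of 80 kb. That on chromosome 14 at 120670000 to 120749999 had 1584 and 267 tags (2.52, 2.21 to 2.88), and that on chromosome 6 at 31000000 to 31079999 had 1647 and 291 (2.402, 2.12 to 2.73), with 1 window at 3.96.

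The domains with the highest lower bound of the ratio were narrower. First came the one on chromosome 3 at 79780000 to 79809999, where the ratio was 3.32 (2.57 to 4.35) from 524 ChIP and 67 input tags. Its 3 windows held 176, 213 and 135 ChIP tags against 17, 30 and 20 input tags. By strand its ratio was 4.23 on the minus and 2.74 on the plus strand, so the height is known only roughly. On chromosome 9 at 69290000 to 69319999 the tags were 704 and 95 (3.14, 2.54 to 3.94), and on chromosome 5 at 104180000 to 104209999 they were 724 and 99 (3.10, 2.51 to 3.87). On chromosome 13 at 16100000 to 16129999 there were 543 and 72 (3.2004, 2.499 to 4.15), with no called 1 kb window.

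Of the remaining 4 in this list, the one on chromosome 9 at 32500000 to 32539999 spanned 40 kb (866 and 122 tags, 3.01, 2.49 to 3.67). The 50 kb domain on chromosome 13 at 63340000 to 63389999 had 1226 and 179 tags (2.91, 2.48 to 3.42). All of its 1 kb bins were above the autosomal ChIP mean of 5.34 tags, its lowest bin had 8, and it held 5 called 1 kb windows, the most of any member. On chromosome 7 at 75090000 to 75119999 the tags were 574 and 78 (3.12, 2.46 to 4.01), and on chromosome 16 at 24410000 to 24459999 they were 963 and 139 (2.94, 2.46 to 3.54). All 8 of these domains, and 11 of the 12 widest, were also met by the moved grid and by the choice on each strand. They were picked for height or width on the same tags, so this was largely fixed beforehand.

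Membership at the threshold was a matter of single tags. The lowest window of a member was below 1.6 in 570 of the 1356. Just inside the limit was a 50 kb domain on chromosome 6 at 83050000 to 83099999, whose lowest window had 152 ChIP and 43 input tags, which is a ratio of 1.5001. Just inside as well were a 30 kb domain on chromosome 1 at 162120000 to 162149999 and a 40 kb domain on chromosome 2 at 155040000 to 155079999, each with a window of 99 against 28 tags and a ratio of 1.5004. Just outside, with a lowest window at 1.4994, were stretches on chromosome 9 at 59460000 to 59489999 and at 59130000 to 59159999, and on chromosome 7 at 79570000 to 79599999. Their lowest windows held 106 against 30, 106 against 30, and 53 against 15 tags. None of the 3 members just inside was met by the moved grid.

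To ask whether domains were made of peaks or of a plateau, each 10 kb window was divided into 10 bins of 1 kb. Bins were ranked by their plus-strand ChIP tags and measured on minus-strand tags. In the members the top bin had a ratio of 3.38 (3.30 to 3.46) on the minus strand and the other 9 bins together 1.93 (1.91 to 1.94). The ratio then fell with every rank, to 1.46 (1.42 to 1.502) in the lowest bin. Input tags changed little over the ranks, from 1.33 times the autosomal mean in the top bin to 1.21 times in the lowest, while ChIP tags went from 4.48 to 1.76 times the mean. ChIP tags above the scaled input were spread widely: 22.8% lay in the top bin, 52.5% in the top 3 bins and 28.6% in the lower 5. These members were chosen on both strands, so the height of the floor is set in part by the rule, and only the ranking is free of the tags measured.

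**Figure D3:**
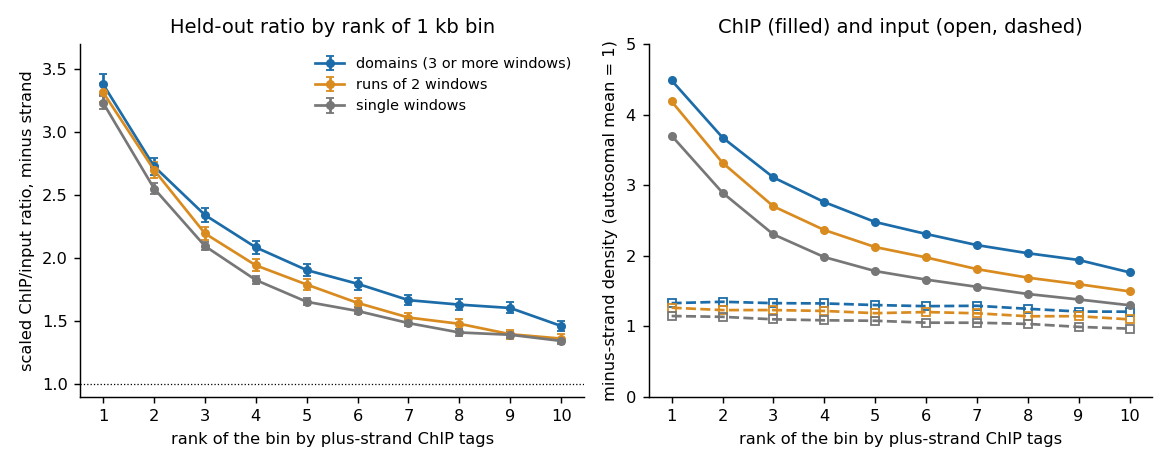
Left, scaled ChIP/input ratio of minus-strand tags (95% intervals) against the rank of the 1 kb bin by plus-strand ChIP tags within its 10 kb window. Right, minus-strand tag densities relative to the autosomal mean for ChIP (filled) and input (open). In domains the ratio falls from 3.38 in the top bin to 1.46 in the lowest. It stays above 1 at every rank in domains, in runs of 2 and in single windows.

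The same ranking was made in runs that the plus strand alone had chosen, so that neither the run nor the rank used the tags measured. In these domains the top bin was at 2.80 (2.74 to 2.86) and the lower 5 bins at 1.38 (1.37 to 1.39). In single windows the top bin was at 2.14 (2.11 to 2.17) and the lower 5 at 1.08 (1.07 to 1.09). The top bin was 1.31 times as high in domains as in single windows (1.28 to 1.34) and the lower 5 bins 1.28 times (1.26 to 1.296). Runs of 2 lay between, with 2.54 (2.49 to 2.59) in the top bin and 1.22 (1.21 to 1.23) in the lower 5. Maxima and lower bins were therefore both higher in domains than in single windows, by factors whose intervals overlapped. Against runs of 2 the factors were 1.10 (1.07 to 1.13) and 1.13 (1.11 to 1.15). The lower 5 bins stayed above a ratio of 1 in all 3 sets, on tags that had no part in the choice. Windows that passed through counting error can be a larger share of shorter runs, and their part in these factors was not tested. The share of minus-strand ChIP tags in the top bin was close in domains, 16.7% (16.6 to 16.8), and in single windows, 17.2% (17.1 to 17.3). Of the ChIP tags above scaled input, the top bin held 36.6% in single windows and 25.2% in domains, and the other 9 bins held the rest.

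Inside members most bins were above the genome's average, which follows in large part from the rule. Of their 1 kb bins, 89.4% had more ChIP tags than the autosomal mean bin, against 38.1% of all autosomal bins. In 145 members every bin did so, and in 837 at least 90% did. The highest bin of a member had a median of 38 tags, 2.67 times the member's mean bin, and reached 3 times that mean in 384 members. The variance of ChIP tags over the 10 bins of a window was 3.37 times their mean at the median, where 1 stands for counting noise alone. For input tags in the same windows it was 0.968 times the mean. In single windows the values were 3.27 for ChIP and 0.992 for input, both sets being chosen by the same ratio. This measure grows with the number of tags, which was higher in domains, so it does not rank the 2 sets by relative unevenness.

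Single 1 kb windows were also tested on their own over the whole genome. Each window whose ChIP and input tags came to 10 or more was put to an exact binomial test, two-sided, of its split between the libraries. It was called where the ratio reached 1.5 and the p, adjusted by Benjamini-Hochberg, was under 0.05. Of 706215 tested windows 2684 were called higher in ChIP, a background of 0.38%. Inside the members 743 of 40350 tested windows were called (1.84%), a share that follows from the choice of members by the same contrast. They lay in 521 of the 1356 members, and 835 members (61.6%) had no called 1 kb window. In 365 members there was 1 call, in 104 there were 2 and in 52 there were 3 or more. In most domains no single 1 kb window could thus be called at this depth.

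Edges were read from the windows just inside and just outside the runs. Of the 2712 edges, 2686 (99.04%) were set by a window with enough input tags and a ratio under 1.5, and 26 by a window with fewer than 10 input tags. Of the windows that closed a domain by their ratio, 615 (22.9%) were between 1.3 and 1.5 and 936 (34.8%) were below 1. These values follow from the rule, and the dip they show was smaller on the unused strand. In domains chosen on plus-strand tags, the window just outside had a ratio of 1.03 on that strand and 1.16 (1.15 to 1.18) on the minus strand. The first and last windows inside were at 1.67 (1.66 to 1.69) and the inner windows at 1.82 (1.80 to 1.84). The step across the edge was thus 1.44-fold (1.42 to 1.46), and inner windows were 1.09 times as high as the end windows (1.07 to 1.10). Inner windows come in larger part from long runs, whose ratio was higher, so this factor does not give the shape within domains alone. The window after the next outside was at 1.19 (1.18 to 1.201), 1.02 times the window just outside (1.01 to 1.04).

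The place of the highest window was set against the share of windows that are end windows, which falls with width by construction. In domains of 30 kb it was an end window in 538 of 839 (64.1%), where 66.7% of the windows are end windows. In domains of 60 kb or more it was an end window in 20 of 99 (20.2%), where 29.97% of the windows are. At 40 kb it was an end window in 45.1%, against an end share of 50%, and at 50 kb in 34.2%, against 40%. The 1 kb bin with the most plus-strand ChIP tags lay in an end window in 67.5% of domains of 30 kb, 53.9% of 40 kb, 43.9% of 50 kb and 22.2% of 60 kb or more. By that bin, end windows were thus above their share up to 50 kb and below it in the widest domains, and none of these differences was tested.

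At 1 kb the fall began before the edge. In the members ChIP density was 2.65 times the autosomal mean at 12.5 kb inside the edge, highest at 9.5 kb inside with 2.93 times, and 2.07 times at 0.5 kb inside. It was 1.74 times at 0.5 kb outside and 1.45 times at 5.5 kb outside. Edges lie on a grid of 10 kb, which limits how sharp a mean fall can appear. Beyond the first window outside, ChIP density stood at 1.61 times the mean at 10 to 20 kb, higher than within the first 10 kb outside (1.51), where the rule had required a failing window.

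Beyond the closing window the surroundings of domains were enriched too. Left out here were the closing windows and the windows of other domains. The flanks had a ratio of 1.23 (1.2196 to 1.24) at 10 to 20 kb and 1.21 (1.202 to 1.2225) at 20 to 30 kb. At 50 to 100 kb the ratio was 1.12 (1.12 to 1.13), at 100 to 200 kb 1.08 (1.07 to 1.08), and at 500 to 1000 kb 1.00 (1.00 to 1.01). All autosomal windows outside domains had 0.971. Runs of 2 had 1.11 (1.11 to 1.12) at 10 to 20 kb and single windows 0.986 (0.983 to 0.989). At 500 to 1000 kb the ratio was 0.962 around runs of 2 and 0.918 around single windows. Flanks of runs of 2 also left out all runs of 2, and those of single windows left out all passing single windows. Flanks of domains kept both kinds, so the levels of the 3 sets are not like for like. Near flanks were thus above far ones in all 3 sets. The order of the sets is partly fixed by what was left out, and is not read as a trait of domains. A window can lie in the flank of several runs, and these intervals do not allow for that.

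**Figure D4:**
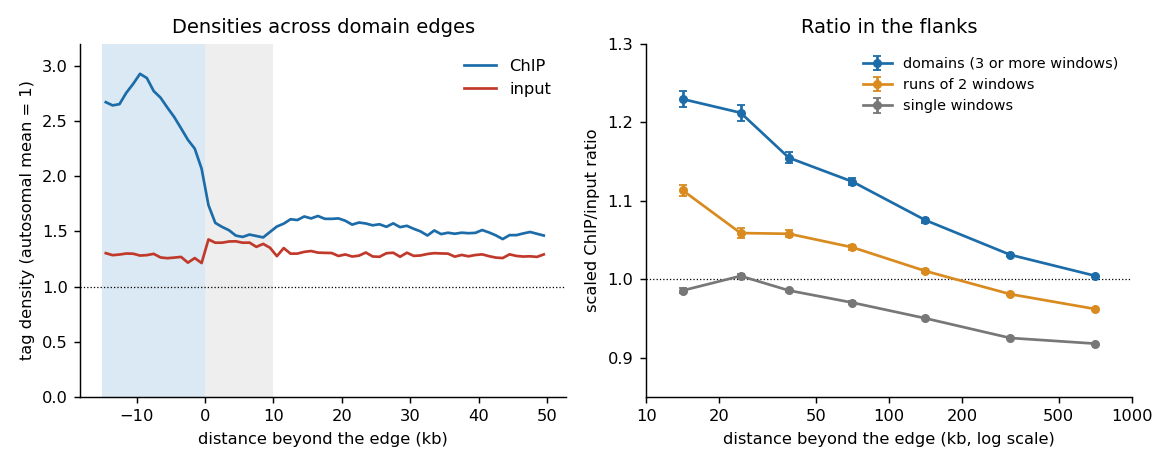
Left, ChIP and input tag density (autosomal mean = 1) per 1 kb against distance beyond the domain edge in kb; blue shading marks the inside and grey the closing window. Right, scaled ratio with 95% intervals against distance (log scale) for domains, runs of 2 and single windows; domains fall from 1.23 at 10 to 20 kb to 1.00 at 500 to 1000 kb.

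Passing windows recurred past the edges. Among eligible windows at 10 kb beyond an edge, 697 of 2684 passed the ratio of 1.5, which is 26.0% (24.3 to 27.7), against the background of 10.6%. At 90 kb beyond it the share was still 20.6% (19.1 to 22.2). Windows of neighbouring domains were counted here. These windows lie 20 kb and 100 kb from the domain's end window. At those distances after any passing window the share was 22.2% and 16.7%. That share includes domain windows and, at 20 kb, pairs inside domains, which passed by the rule. It therefore does not show how much of the excess is particular to domains. When a single failing window between 2 passing ones was bridged, the number of domains went from 1356 to 3119 and the widest reached 220 kb. With the grid moved by 5 kb the widest was 170 kb, on chromosome 15 at 52935000 to 53104999, whose ratio was 2.02 (1.83 to 2.23) from 2361 ChIP and 496 input tags. On the unmoved grid that stretch held 3 members and 4 failing windows, the lowest at 1.09. The width of a domain is thus that of an unbroken run on 1 grid, and not of the enriched neighbourhood.

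Domains lay in chromatin that was well represented in the input. Member windows held on average 29.2 input tags, 1.29 times the autosomal mean (1.28 to 1.29), against 24.5 in all eligible windows. Single windows held 24.1 and runs of 2 held 27.0. The rule takes part in these values, since it needs at least 10 input tags and selects on a ratio that has the input below the line. On the unused strand, domains chosen on plus-strand tags had an input density of 1.38 times the mean (1.37 to 1.38), and the window just outside had 1.29 times (1.28 to 1.302). In the members themselves the order was the other way round, with 1.29 inside and 1.39 just outside. The input was thus not lower inside domains than beside them once the choosing tags were set aside.

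The more input tags a window had, the more often it belonged to a domain. Of eligible windows with 10 to 14 input tags 9.41% passed the ratio and 0.436% were in domains. Of windows with 40 or more, 13.54% passed and 5.41% were in domains. Among passing windows alone, the share in domains went from 4.63% at 10 to 14 tags to 40% at 40 or more. Over the same classes the ratio of member windows went from 2.17 to 2.01. Input density therefore moved with domain membership, and its part in the choice of domains was not tested further.

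The spacing of domains was described by the gaps between them. The median gap from a member to the nearest other member was 270 kb. In all, 423 (31.2%) had a neighbour within 100 kb and 1084 (79.9%) within 1 Mb, while the most isolated lay 12410 kb from the next. The share within 1 Mb depends on how many domains there are, and was 24.7% with a ratio of at least 2 and 41.9% with windows of 5 kb. Between 56 pairs of neighbours the gap was a single window of 10 kb, which concerns 112 members. When members at most 100 kb apart were linked, 933 stayed single and the other 423 formed 142 pairs, 33 clusters of 3, 5 of 4 and 4 of 5. Clustered members were about as wide as single ones (mean 38.0 against 36.1 kb) and had a pooled ratio of 2.11 (2.09 to 2.13) against 2.05 (2.04 to 2.07). Of blocks of 1 Mb, 65.0% held no start of a domain and 4 blocks held 6.

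There were 4 clusters of 5 domains. One, on chromosome 16 at 57390000 to 57759999, had 240 kb of its 370 kb in domains, and 27 of its 37 windows passed. Over the whole span 4442 ChIP tags stood against 1047 input tags (1.80, 1.68 to 1.93), and between its domains the ratio was 1.29. On chromosome 15 at 61860000 to 62139999, 190 kb of 280 kb were in domains and the ratio over the span was 1.72 (1.60 to 1.84). The cluster on chromosome 3 at 95640000 to 96089999 was the longest, 450 kb, with 1.53 (1.45 to 1.63). On chromosome 5 at 32160000 to 32519999 the span had 1.6003 (1.498 to 1.71), and only 1.11 between its domains. These clusters were singled out after their values were seen.

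The grouping reached further than the runs themselves. An eligible window passed in 27.3% of cases when the window 10 kb before it had passed, against 10.6% of all eligible windows. At 100 kb the share was 16.7%, at 1000 kb 11.8% and at 5000 kb 10.4%. In a second form, the first window was judged on plus-strand and the other on minus-strand tags. Different windows share no tags in either form, so the second is not a separate check. The share was then 27.1% at 10 kb and 19.6% at 100 kb, against 14.4% of all windows eligible on the minus strand. At 2000 kb the shares were 11.2% and 15.4%. Passing windows were thus more frequent near other passing windows in both forms of the count, with a share that fell with distance.

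**Figure D5:**
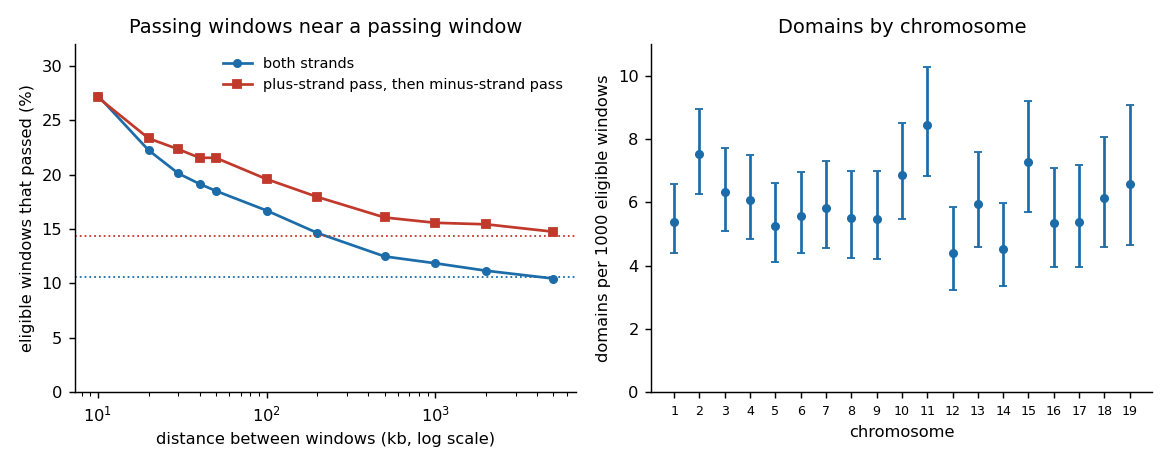
Left, percent of eligible windows that passed, given that a window at the stated distance (kb, log scale) passed, for both strands together and for plus-strand then minus-strand tags; dotted lines mark the shares of all eligible windows, 10.6% and 14.4%. Right, domains per 1000 eligible windows by chromosome with 95% Poisson intervals, highest on chromosome 11 at 8.43.

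Every autosome held domains, at unequal rates. Over all autosomes there were 6.00 per 1000 eligible windows. Chromosome 11 had the highest rate with 98 domains, or 8.43 (6.84 to 10.3), followed by chromosome 2 with 127, or 7.51 (6.26 to 8.93). The lowest rates were on chromosome 12 with 47, or 4.41 (3.24 to 5.86), and chromosome 14 with 49, or 4.52 (3.34 to 5.97). The intervals of chromosomes 11 and 2 did not overlap those of chromosomes 12 and 14, while most others overlapped. These chromosomes were picked as the extremes. Poisson intervals take domains as independent, but starts per 1 Mb had a variance of 0.823 against a mean of 0.546. The intervals can thus be too narrow. The rate followed the ratio of the whole chromosome, with Pearson's r = 0.862 and Spearman's rho = 0.821 over 19 autosomes, and r = 0.865 without the 2 chromosomes farthest from the median ratio. This is a description, since both values come from the same tags and the ratio of a chromosome contains its domains.

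Strand balance and tag spacing, which had no part in the choice, were alike in domains and outside them. Plus-strand tags made up 49.9% of ChIP tags in domains (49.8 to 49.99) and 49.9% in eligible windows outside. Over the autosomes they made up 49.9% in either library, so a difference in this balance was hardly possible. Tag pairs on the same strand at 165 to 185 bp, a nucleosome-sized distance, were set against the mean of the pairs at 75 to 95 and 255 to 275 bp. This contrast was 1.018 ± 0.00368 (jackknife SE over 19 autosomes) in the ChIP tags of domains and 1.0205 ± 0.00121 outside. Its difference, -0.00228 ± 0.00382, was smaller than its error. In input tags the contrast was 1.018 ± 0.00900 in domains and 1.0205 ± 0.00264 outside, so it is not a measure of Brg1. Positions listed with 2 ChIP tags were 1.55% (1.52 to 1.57) of the positions in domains and 0.783% (0.778 to 0.788) outside. Each such position adds 2 tags to the count that chose the domains, so this share is partly fixed by the choice. Input positions with 2 tags were 0.0131% in domains and 0.0209% outside. ChIP density was 2.67 times the autosomal mean in domains, and the part of density in the ChIP share was not tested.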

How the data were processed

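The values are the counts of tags per position and strand that the authors deposited, with no normalization named, and the submitters' processing notes name Bowtie and mm9 with no version. Which filter on repeated tags was used, the sources used here do not give. Tags were moved 75 bp along their strand and summed in windows of 10 kb and bins of 1 kb on 19 autosomes. Domains are runs of at least 3 windows with 10 or more input tags and a scaled ratio of 1.5 or more. Ratios carry exact conditional (Clopper-Pearson) 95% intervals, densities Poisson intervals, and ratios of 2 ratios intervals on the log scale. The two-sided binomial p was taken as the smaller tail doubled. The rule for named regions took the 12 widest domains, 8 with the highest lower bound among the rest, and 3 on each side of the threshold. The members, rules and tests were chosen with earlier results of these data known. The finding and measuring of domains was tested on simulated windows with counting noise only. No result of that test is given here, and it is not used as support for the members. Alternatives changed the threshold, input minimum, scaling, grid, window size, repeated tags, tag movement and chromosomes. Python 3.11.15, numpy 2.4.6, scipy 1.17.1, pandas 2.3.3 and matplotlib 3.10.9 were used. Genes and sequences were left out, because the tables at hand are on GRCm38 and coordinates were not converted.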

Additional observations from a re-analysis of the deposited data

Results flagged for a closer look

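The rule covers autosomes only, so chromosome X was outside the comparisons. Applied there with the autosomal scale, it gave 37 domains, the longest of 60 kb, with 8983 ChIP and 1879 input tags and a ratio of 2.03 (1.93 to 2.13). That is 3.95 per 1000 eligible windows, below the 4.41 of chromosome 12, the lowest autosome, but inside that chromosome's interval (3.24 to 5.86). No interval was computed for X. Of its 9361 eligible windows 7.47% passed. Chromosome Y had 125 eligible windows, of which 0 passed.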

How the results depend on the processing

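The number of domains, 1356, and their length, 49800 kb, followed the threshold. A ratio of at least 1.3 gave 3064 domains over 119650 kb and a ratio of at least 2 gave 190 over 6330 kb. Windows of 5 kb in runs of 6 gave 315 over 11350 kb, scaling on the median window (background scaling, 0.896 times the scale by totals) 2581 over 98830 kb, and bridging of single failing windows 3119 over 137010 kb. Each other setting tried for these kept both within 1.5 times, but the moved grid touched only 744 of the 1356 members. The pooled ratio of 2.07 became 1.85 at a threshold of 1.3, 2.55 at 2, 2.38 with 5 kb windows, 2.11 with background scaling and 2.02 with 1 tag per strand within 5 bp. On the unused strand the minus-strand ratio of 1.74 became 1.57 at 1.3, 2.08 at 2, 1.80 with background scaling and 1.88 with at least 10 tags of the choosing strand. The plus-strand ratio became 1.57, 2.12, 1.80 and 1.87 under the same settings. The top bin's 3.38 became 2.97 at 1.3, 4.36 at 2 and 3.54 with 5 kb windows, and the 1.93 of the remaining bins 1.71, 2.38 and 2.26, with 1.96 under background scaling. Flanks at 10 to 50 kb, at 1.19 (1.186), became 1.10 at 1.3, 1.33 at 2, 1.21 with a minimum of 20 input tags, 1.18 (1.179) on the moved grid, 1.29 with 5 kb windows and 1.25 with background scaling. Input density in domains, at 1.29 (1.288), became 1.26 (1.261) at 1.3, 1.33 (1.326) at 2, 1.28 with a minimum of 5 input tags, 1.36 with 20, 1.298 on the moved grid, 1.33 (1.328) with 5 kb windows and 1.27 with background scaling. Domains with another within 1 Mb, 79.9%, became 94.3% at 1.3, 24.7% at 2, 76.4% with 20 input tags, 41.9% with 5 kb windows and 92.1% with background scaling. Fewer domains leave wider gaps by construction; otherwise the cause was not tested. Calls of 1 kb windows inside members were 743, and 901 with p summed over counts no more likely, a form added after the data were seen. In all, 54 alternative values stayed within the interval of the value reported or, for counts, within 1.5 times, and 48 moved beyond. No paired analysis was possible because there was 1 library per group. Depth limits the calls: the median member held 97 input tags.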
